A study of Mus musculus with 4 samples.

Results

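The genes described here restrain the growth kinase mTOR, sense nutrient or energy stress, or drive autophagy. They are Ddit4, Sesn1, Sesn2, Prkab1, Tsc2, Ulk1, Ulk2 and Dram1, 8 genes that p53 is known to reach in other settings. A p53 peak was counted for a gene when its center lay within 50 kb of any annotated transcription start site (TSS) of that gene. By this rule 18 of the 7384 deposited p53 peaks belonged to 6 of the 8 genes. Ddit4 had 7 peaks, Sesn2 and Ulk1 had 3 each, Sesn1 and Tsc2 had 2 each, Dram1 had 1, and Prkab1 and Ulk2 had none.

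The peaks come from p53 chromatin immunoprecipitation sequencing (ChIP-Seq), which maps where p53 sits on DNA in fixed cells. The p53 libraries came from Ba/F3 cells left untreated, Ba/F3 cells given 3 Gy of ionizing radiation and fixed 3 h later, and untreated HPC7 cells. Ba/F3 is a mouse IL-3-dependent line of B cell progenitors and HPC7 a mouse SCF-dependent line of multipotent progenitors. Both lines, in every group, stably carried triple-FLAG-tagged murine MYSM1 under puromycin selection, so no group lacked the tagged protein. There was 1 library per condition, and the irradiated Ba/F3 library for H3K27ac was not analysed here.

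The deposited list gives each peak as a window of 100 bp and a number, with no read count, height or p-value, so neither sequencing depth nor peak strength can be read from it. The number orders the peaks by fold change of p53 binding after irradiation. Peak 1 had the largest gain, and the end of the list held the largest losses. A low number therefore marks a large fold gain and not a strong peak. It has no column for a single library, so binding by cell line and the size of the change at each peak were not analysed here.

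mTORC1 is the kinase complex that promotes protein synthesis and blocks autophagy when amino acids and growth factors are plentiful. DDIT4 (REDD1) and the AMP-activated kinase AMPK restrain it, in large part through the TSC complex, which switches off the GTPase Rheb. The sestrins restrain it by way of the GATOR complexes and AMPK. ULK1 and ULK2 start autophagosome formation when mTORC1 is low, and restrained mTORC1 and active autophagy are both known to preserve blood stem cells. p53 binds DNA as a tetramer at a pair of half-sites of 10 bases, each built around a CNNG core.

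Sites that matched the p53 consensus over 20 positions, with no spacer, at most 3 mismatches and both cores intact, were searched within 100 bp of each peak center. There were 6 such sites at the member peaks, 4 of them at Ddit4. They are printed from the plus strand of mm9 because they carry the closest matches. Capitals mark the bases of the site that fit the consensus, and lower-case letters are flank or mismatch. Peaks are named by their distance from the TSS in the direction of transcription. The first 2 lines show whole peaks of Ddit4 with sites free of mismatches, and the others show the site with 5 flanking bases on each side.
Ddit4, 3251 bp downstream, chr10:59411218-59411317: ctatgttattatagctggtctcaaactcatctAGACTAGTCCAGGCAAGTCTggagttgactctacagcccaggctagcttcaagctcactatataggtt
Ddit4, 4706 bp upstream, chr10:59419175-59419274: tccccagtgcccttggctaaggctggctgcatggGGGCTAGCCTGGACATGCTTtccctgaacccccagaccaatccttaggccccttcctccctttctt
Ddit4, 7280 bp downstream, chr10:59407221-59407250: cccgaGGGCTTGTCTcAGCATGCCaggcaa
Ddit4, 49684 bp downstream, chr10:59364825-59364854: gcagacAGCATGCCCtGGCATGCaCactga
Ulk1, 4169 bp upstream, chr5:111243274-111243303: tgtatGGACATGTTgAGGCATGTaCcattt
Tsc2, 27753 bp downstream, chr17:24741809-24741838: cgggccAtCATGTCCAGACATGTTTctgtg

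The Sesn1, Sesn2 and Dram1 peaks held no such site. The next set shows what was found within 100 bp of their centers under looser searches. In the Sesn1 and Sesn2 sequences the half-sites are separated by 1 and 6 bases, and the capitals again mark matching bases. In the Dram1 site a core base itself is mismatched, and most of the site lies past the end of the deposited window of chr10:87843794-87843893, though within 100 bp of its center. The fourth sequence has half-sites 10 bases apart and lies beside a distal Ddit4 peak, outside the deposited window of chr10:59440824-59440923 but within 100 bp of its center.
Sesn1, 16491 bp downstream, chr10:41546822-41546921: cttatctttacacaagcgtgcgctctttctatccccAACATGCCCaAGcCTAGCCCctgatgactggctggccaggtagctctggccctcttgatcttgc
Sesn2, 5140 bp upstream, chr4:132071507-132071606: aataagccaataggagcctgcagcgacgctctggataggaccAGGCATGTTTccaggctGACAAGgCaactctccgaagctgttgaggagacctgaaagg
Dram1, at the edge of the peak 2018 bp upstream, chr10:87843886-87843915: cttactAAgTTGCCCAGGCTAGCCTgaagt
Ddit4, beside the peak 26355 bp upstream, chr10:59440790-59440819: AGACATGgCTtccagcccagGGGCTTGTCT

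Of the 18 peaks, 5 lay within 1 kb of a TSS of the gene itself and 11 within 10 kb. A center stood within 1 kb of a TSS of the gene itself for 5 of 8 members (Ddit4, Sesn1, Sesn2, Tsc2 and Ulk1), against 6.13% of the 22380 protein-coding genes. Within 10 kb, 6 of 8 members had a peak, against 15.6% of protein-coding genes. Within 50 kb it was the same 6, against 40.4%. The members were named with these results known, so the counts describe them and were not tested. For 8 of the 18 peaks another protein-coding gene had the nearer TSS.

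**Figure D1:**
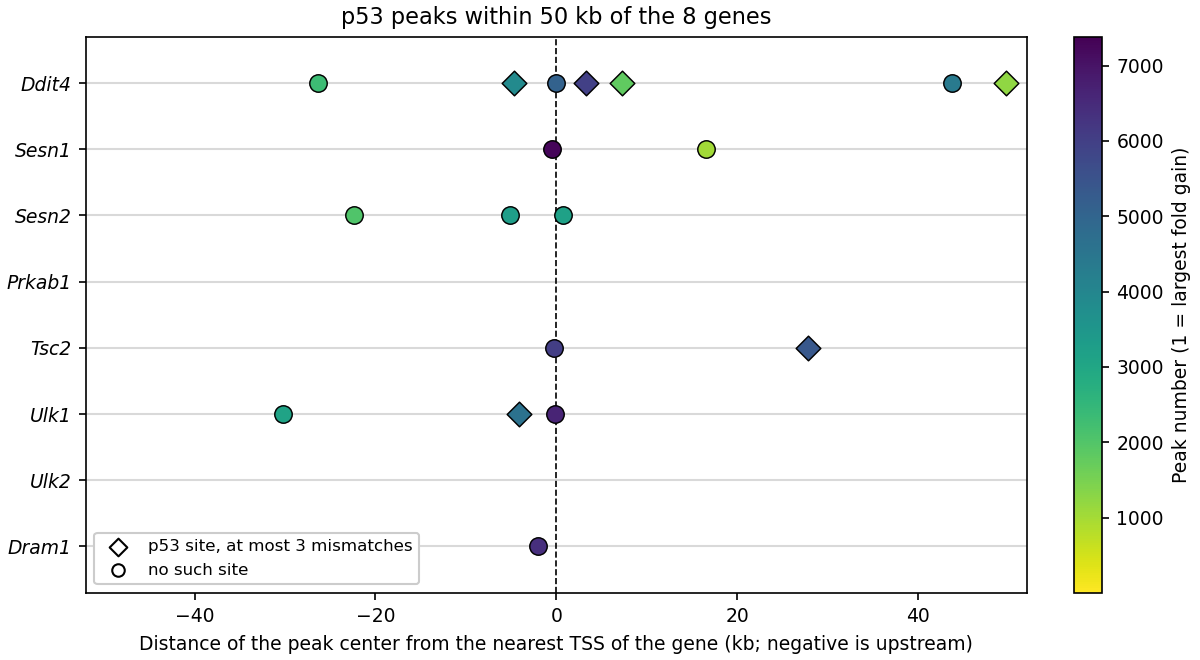
Each point is 1 of the 18 p53 peaks, placed by the distance of its center from the nearest TSS of the gene in kb, with negative values upstream. Diamonds have a p53 site of at most 3 mismatches and circles have none, and the color gives the peak number. Ddit4 has 4 peaks within 10 kb, and the rows of Prkab1 and Ulk2 are empty.

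Among the mTORC1 inhibitors, Ddit4 had the densest cover. Ddit4 (ENSMUSG00000020108, chr10:59412423-59414518, minus strand) encodes a stress-induced protein that inhibits mTORC1 through the TSC complex. Its 7 peak centers spanned 76.0 kb. Only 1 other of the 22380 protein-coding genes, annotated as Rpl30-ps6, had as many peaks within 50 kb. Having 3 or more peaks was true of 4.25% of protein-coding genes.

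The Ddit4 peak nearest the TSS lay 23 bp upstream, at chr10:59414492-59414591, with number 5088. Its window of 200 bp had a GC content of 67.0% and 17 CpG dinucleotides, and held no p53 site. This window matched 3 places in the genome, itself included, at 80% identity or more across 100 bp or more, and 1 of these 3 lay at a deposited peak. The other 17 member windows were found once each.

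The 3 other Ddit4 peaks within 10 kb all had a site and lay outside the gene. The peak 3251 bp downstream of the TSS was 1156 bp past the end of the gene. It had number 5992, and its site at chr10:59411250-59411269 had 0 mismatches. The peak 4706 bp upstream had number 3890, and its site at chr10:59419209-59419228 also had 0 mismatches. Such a perfect site was found at 454 of 7384 peaks (6.15%), and at 2 of the 18 members. The peak 7280 bp downstream, 5185 bp past the gene end, had number 1802, and its site had 2 mismatches. Of these 3, the peak with the largest fold gain was the one whose site had mismatches.

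The 3 distal Ddit4 peaks were all nearer to another protein-coding gene. The peak 26355 bp upstream (number 2319) lay 24714 bp from the TSS of Ascc1. The peaks 43672 bp (number 4373) and 49684 bp downstream (number 1223) lay 28472 and 22460 bp from that of Dnajb12. Peak 1223 had the largest fold gain of the 7, and it sat just inside the limit of 50 kb. Its site at chr10:59364830-59364849 had 3 mismatches. The next peak out, 52025 bp downstream of Ddit4, had number 5211 and was not counted.

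The sestrins are stress-induced proteins that inhibit mTORC1 by way of the GATOR complexes and AMPK, and SESN2 is itself a leucine sensor. Sesn1 (ENSMUSG00000038332, chr10:41530380-41628230, plus strand) had the peaks with the lowest and the highest number of all 18. Number 1014, at chr10:41546822-41546921, lay 16491 bp downstream of the first TSS in intron 1. The spaced site printed for it had 2 mismatches and a spacer of 1 base. Number 7277, at chr10:41529809-41529908, lay 522 bp upstream of the same TSS and 182 bp from the TSS of Cep57l1. Its GC content was 74.0%, the highest of the members, and it held no site even with spacers allowed. The 2 Sesn1 peaks thus stood at percentiles 13.7 and 98.6 of the list, the first with a spaced p53-like sequence and the second without.

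Sesn2 (ENSMUSG00000028893, chr4:132047947-132066416, minus strand) had 3 peaks, numbers 3170, 3285 and 2028. Number 3170 lay 733 bp downstream of the TSS in intron 1, at chr4:132065634-132065733, with a GC content of 64.5% and a best match of 5 mismatches. Number 3285, 5140 bp upstream, was the one with half-sites 6 bases apart and 3 mismatches. Number 2028, 22408 bp upstream, lay within Atpif1, 579 bp from a TSS of that gene, and its best match had 4 mismatches. Just beyond the limit, peaks at 52203 bp from Sesn2 (number 4298) and 52733 bp from Sesn1 (number 4739) had sites with 3 mismatches and 1 mismatch.

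Tsc2 encodes tuberin, the subunit of the TSC complex that inactivates Rheb. The gene (ENSMUSG00000002496, chr17:24732882-24769574, minus strand) had a peak near the TSS and a peak far inside the gene. Number 6035, at chr17:24769770-24769869, lay 245 bp upstream of the TSS in intron 1 of the divergent gene Nthl1, 192 bp from the Nthl1 TSS, and held no site. Number 5369 lay 27753 bp downstream, in a coding exon of Tsc2, counted as exon 26 in 4 of its 8 annotated transcripts and exon 27 in 3. The site in that exon, at chr17:24741814-24741833, had 2 mismatches. It was the only member peak centered in an exon of the member gene.

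Prkab1 encodes the beta 1 subunit of AMPK, the kinase complex that answers to low cellular energy. For this gene (ENSMUSG00000029513, chr5:116463595-116474517, minus strand) no peak lay within 50 kb or within 100 kb of any of its 9 TSSs. The nearest was number 7088 at chr5:116081846-116081945, 383275 bp away and 43 bp from the TSS of Rab35. Of 22367 protein-coding genes on a chromosome with a peak, 2674 had their nearest peak farther away than Prkab1. The region within 50 kb of its TSSs held 2 consensus sites with 2 mismatches, 4 with 3 mismatches and 0 closer to the consensus.

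Of the autophagy-initiating kinases, Ulk1 had peaks and Ulk2 had none. Ulk1 (ENSMUSG00000029512, chr5:111213507-111239116, minus strand) had number 6655 at 193 bp upstream of its TSS, with no site, and number 4614 at 4169 bp upstream, with a site of 2 mismatches at chr5:111243279-111243298. Its other peak, number 3092, lay 30192 bp upstream in intron 1 of Chek2, 272 bp from the Chek2 TSS. Chek2 encodes a DNA damage kinase that acts on p53, and its TSS was the nearer one. The peak nearest to Ulk2 (ENSMUSG00000004798, chr11:61589151-61668575, minus strand) was number 1398, 128465 bp away, and 35.7% of protein-coding genes had a more distant nearest peak. The Ulk2 region held 4 sites with 3 mismatches and none closer to the consensus.

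Dram1 encodes a lysosomal membrane protein that promotes autophagy downstream of p53. Dram1 (ENSMUSG00000020057, chr10:87785549-87841825, minus strand) had number 6389 at chr10:87843794-87843893, 2018 bp upstream of its first TSS. The center fell in an intron of Gnptab, 1686 bp from a Gnptab TSS, and in exon 1 of the long noncoding RNA Gm17338. No site with intact cores was found. When the cores were allowed to mismatch, the sequence printed for Dram1 had 2 mismatches, a search under which 65.4% of all peaks and 4.82% of control windows had a site.

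Over the 18 peaks, 6 had a site (33.3%, 95% Wilson interval 16.3 to 56.3%). This compares with 54.4% of all 7384 peaks and 1.02% of windows taken 10 kb upstream of the same peaks. The interval for the members includes the share over all peaks, but it treats the peaks as independent. Of the 18 peaks, 7 were at Ddit4, and so were 4 of the 6 sites. In the whole list the share went with position. Peaks within 1 kb of any TSS made up 18.6% of the list, and 19.3% of them had a site, against 62.5% of peaks farther out. Of the 7 member peaks within 1 kb of a TSS of any gene, 0 had a site (upper Wilson limit 35.4%), and of the 11 farther out, 6 did (54.5%, interval 28.0 to 78.7%). The 6 member sites had their center 2 to 8 bp from the peak center, against a median of 9 bp over the 4020 peaks with a site.

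**Figure D2:**
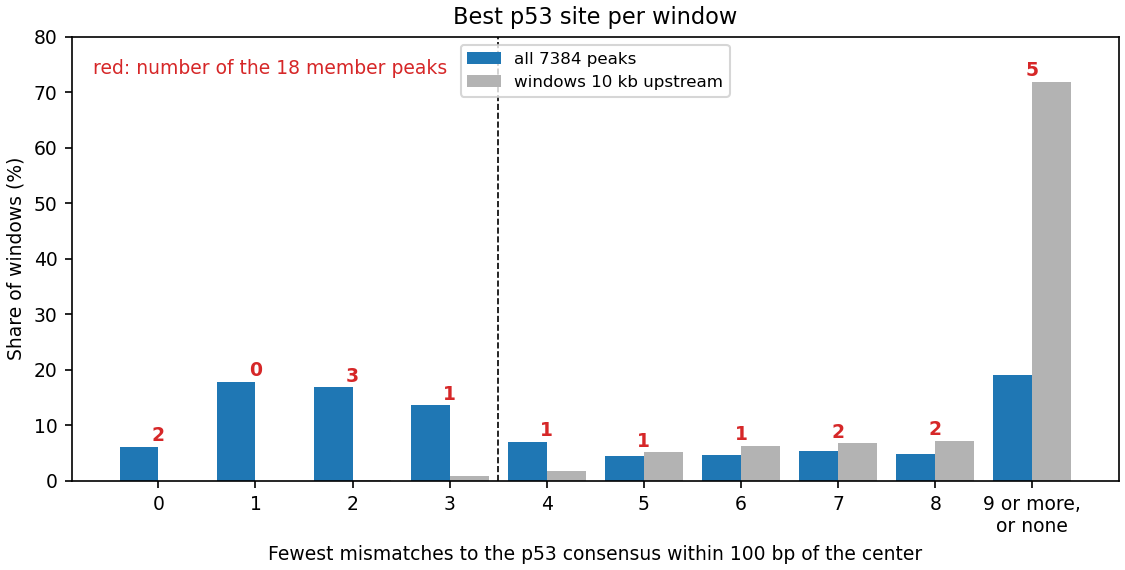
Bars give the share of windows, in percent, by the fewest mismatches to the 20-position p53 consensus within 100 bp of the center, for all 7384 peaks (blue) and for windows 10 kb upstream (gray). Red figures count the 18 member peaks in each class, and the dashed line marks the limit of 3 mismatches. Of the members, 2 have no mismatch and 12 lie beyond the limit.

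Looser searches found more matches in the members and in the control windows alike. With a spacer of 0 to 13 bases, 9 of 18 member peaks, 72.7% of all peaks and 11.2% of upstream windows had a site. An exact half-site was present at 7 of 18 member peaks, 52.5% of all peaks and 6.77% of upstream windows. The downstream Ddit4 peak number 5992 had 3 exact half-sites and the upstream one, number 3890, had 2.

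Motifs of other factors were counted on both strands of the same 200 bp windows. The SP1 core GGGCGG was present at 4 member peaks (Sesn1 7277, Sesn2 3170 and 3285, and Ulk1 6655), and at 15.5% of all peaks and 3.17% of upstream windows. All 4 were peaks without a p53 site. CCAAT, bound by NFY, was present at 6 members and at 26.7% of all peaks, close to its 26.2% in upstream windows. The E-box CACGTG, bound by the lysosomal and autophagy regulator TFEB, was present at 0 members and at 3.86% of all peaks. The AP-1 motif TGANTCA was likewise at 0 members, against 12.8% of all peaks.

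The member peaks were spread across the order of fold change. Their numbers ran from 1014 to 7277 with a median of 4131.5, against 3692.5 for the whole list, and their quartiles were 2512.25 and 5836.25. None stood among the first 1000 peaks. The 6 with a site ran from 1223 to 5992, and the 12 without from 1014 to 7277. When only the nearest peak of each gene was taken, the median was 6212, since peaks at the TSS of Sesn1, Tsc2 and Ulk1 and the Dram1 peak all had numbers above 6000. In the whole list, peaks within 1 kb of a TSS had a median number of 5670 and those farther out 3439.5. Among the last 384 peaks 91.1% lay within 1 kb of a TSS and 0.521% had a site, and the Sesn1 promoter peak was the member found there.

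**Figure D3:**
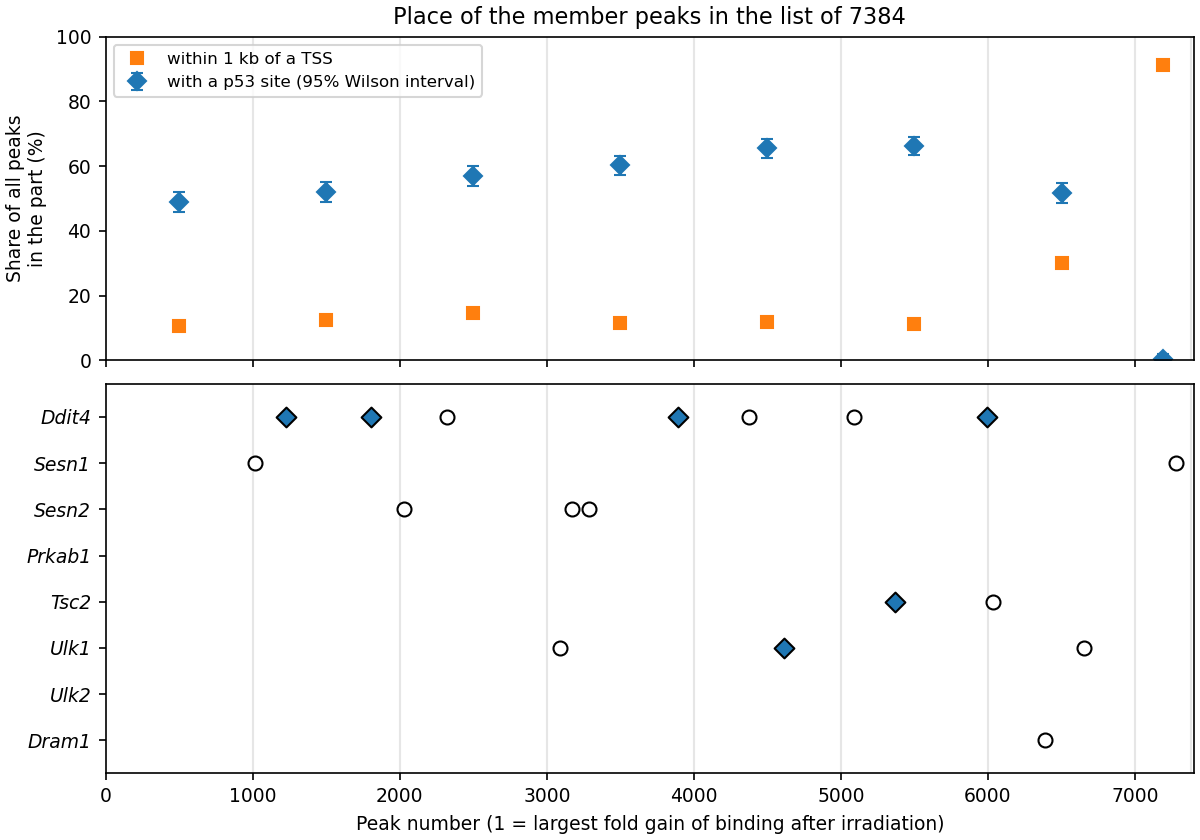
Top, for consecutive parts of the list (1000 peaks each, 384 in the last), the share of peaks in percent with a p53 site (blue diamonds, bars 95% Wilson interval) and within 1 kb of a TSS (orange squares). Bottom, the number of each of the 18 member peaks, filled where it has a site, in which the Sesn1 peaks stand at 1014 and 7277.

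Sites and peaks were then compared the other way round, by listing every consensus site within 50 kb of the members. Across the genome, 71.5% of 645 sites without mismatch had a peak within 100 bp, and this fell to 35.2% with 1 mismatch, then to 1891 of 21007 sites with 2 and 1.57% of those with 3. In the member regions, both sites without mismatch had a peak, and these are the Ddit4 sites printed above. There was no site with 1 mismatch. Of 17 sites with 2 mismatches 3 had a peak, and of 41 with 3 mismatches 1 had a peak. Of 5 sites with 2 mismatches around Sesn2, 0 had a peak, and the same was true of both around Sesn1. The following sites had 2 mismatches, as the bound sites at Ulk1 and Tsc2 did, but no peak, and are shown for that contrast. The Sesn2 one lay 1488 bp from the nearest peak center.
Prkab1, 6041 bp downstream of its nearest TSS, chr5:116459115-116459144: tctgtGAACTAGTggGGACTTGCTCttaag
Prkab1, 44439 bp upstream, chr5:116518942-116518971: caggaAtGCATGCTCAcGCATGTTCatgta
Sesn1, 6061 bp downstream of its second TSS, chr10:41613292-41613321: attgtAAACAgGCCCAAACTTGgTTttcct
Sesn2, 23896 bp upstream, chr4:132090298-132090327: agcttAAtCTAGCTTAAtCTAGCCTattcg
Ulk1, 10997 bp downstream, chr5:111228105-111228134: atgctGGGCATGCTTGccCTAGCCCcatgg

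The wider pathways were taken as a list of 88 further genes, from the subunits of mTORC1 to the autophagy machinery and lysosomal regulators. Of these, 53 had a peak within 50 kb (60.2%, interval 49.8 to 69.8%), beside the 40.4% of all protein-coding genes. The TSC and Rheb group had peaks at 3 of 3 genes and the ULK complex, the partners of ULK1 in initiation, at 3 of 3. The integrated stress response, which raises amino acid synthesis when translation stalls, had peaks at 6 of 8, and the ATG8 conjugation and membrane group at 14 of 22. The lipid kinase complex of Beclin 1 had peaks at 2 of 6, and mTORC1 itself at 2 of 5. With groups this small, every interval is wide. A peak stood within 1 kb of a TSS for 12 of the 88 (13.6%, interval 7.98 to 22.3%), beside the 6.13% of all protein-coding genes. At these 12 genes the nearest peaks had numbers 1764, 2590, 4511, 6591, 6863, 6936, 7090, 7102, 7128, 7184, 7220 and 7268. Most thus stood near the end of the list, and all peaks within 1 kb of a TSS had a median number of 5670. Of those 12 genes, 0 had a p53 site at that peak (upper Wilson limit 24.2%). Among protein-coding genes, 1372 had a peak within 1 kb and 247 had one with a site. The 19.3% found over all peaks within 1 kb of any TSS, a share of peaks and not of genes, lies below that limit. Such a peak with a site within 1 kb was found for 1.10% of all protein-coding genes. A peak with a site lay within 50 kb of 22 of the 88 genes (interval 17.1 to 35.0%) and of 3 of the 8 members, against 22.5% of all protein-coding genes, so the share in the pathway list was near the background.

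The pathway genes with 3 or more peaks were Tsc1, Nprl3, Stk11, Atg2b, Atg4d, Sqstm1 and Vmp1. Tsc1 encodes hamartin, the partner of tuberin, and its nearest peak, number 1764, lay 515 bp upstream. Nprl3, a GATOR1 subunit that switches mTORC1 off when amino acids fall, had 4 peaks with the nearest at 8 bp upstream (number 6591). Stk11 encodes LKB1, the kinase that activates AMPK, with number 2440 at 1514 bp downstream. Vmp1, an endoplasmic reticulum protein needed to form autophagosomes, was the one gene of these with a site at all 3 of its peaks, the nearest 13885 bp downstream (number 4839, 2 mismatches). Atg2b, a lipid transfer protein of the growing autophagosome, had number 3298 at 5125 bp downstream with a site of 2 mismatches. The protease gene Atg4d had number 6863 at 71 bp upstream. The autophagy receptor gene Sqstm1 had no peak nearer than 29524 bp.

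**Figure D4:**
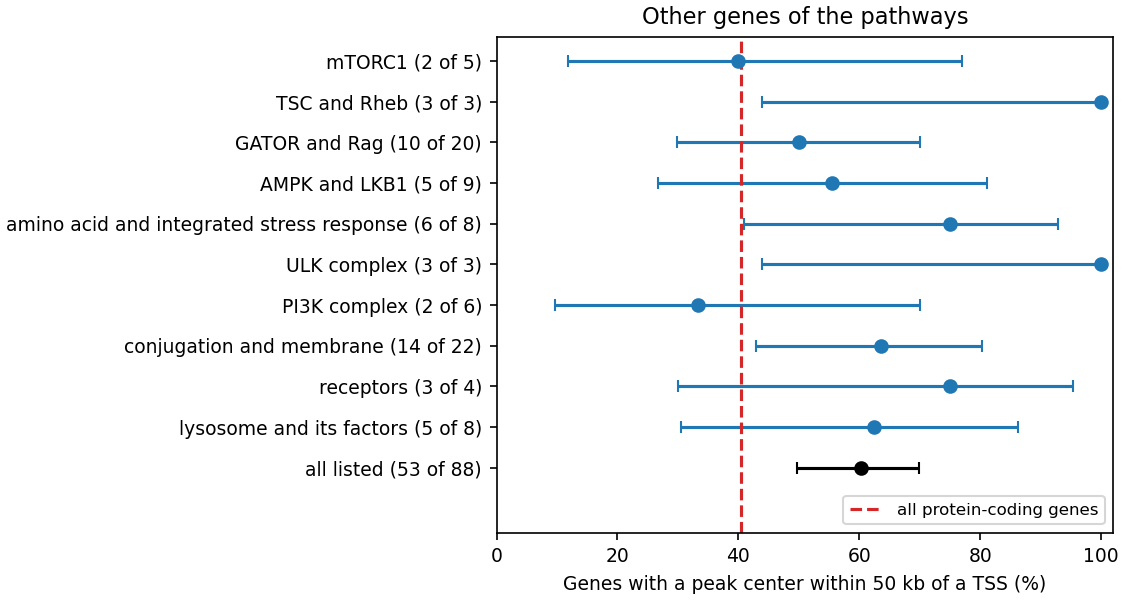
For each group of the 88 further pathway genes, points give the percentage of genes with a p53 peak center within 50 kb of a TSS, and bars the 95% Wilson interval, which covers counting error only. The dashed line is the 40.4% of all protein-coding genes. All listed genes together stand at 60.2%, while most single groups have intervals that span the line.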

How the data were processed

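The authors mapped paired-end ChIP-Seq reads to mm9 with Bowtie 1.0.0 and called peaks with MACS 1.4.1 against input DNA, per the labels and the methods of the study, and how calls from the libraries were merged was not given in the sources used here. The authors deposited 1 list of positions, each with a peak name whose number is an order score (by fold change of binding, per a figure legend). The order was checked on 1955 rows held here, of which 1955 had the same number and position.

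Distances ran from the peak center to TSSs of any GENCODE M1 transcript (mm9), and sequences came from that genome build. The p53 consensus (20 positions, 2 half-sites) was searched with Python 3.11.15 and pysam 0.24.0, after tests on simulated data. Those tests checked that the best match had no more mismatches than the planted site, and did not check its position. For copies of the windows, BLAST+ 2.17.0 was run on the genome (word size 11, e-value limit 1e-10). Intervals are 95% Wilson intervals and cover counting error only. With 1 library per condition no test between conditions was made. The members and gene lists were chosen with earlier results of these data known. Named genes are the members, pathway genes with 3 or more peaks or with a site at a peak within 1 kb, and any coding gene nearer to a member peak than the member. Rpl30-ps6 and Rab35 were looked up after the values were seen.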

Additional observations from a re-analysis of the deposited data

How the results depend on the processing

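The 18 member peaks became 11 with a limit of 10 kb, 10 when a peak was given only to the protein-coding gene with the nearest TSS, and 5 among the first 3000 peak numbers. The 6 member genes became 3 among the first 3000 numbers. The median peak number of 4131.5 became 6212 with only the nearest peak of each gene. The share of protein-coding genes with a peak, 40.4%, became 15.6% at 10 kb, 26.5% at 25 kb, 57.8% at 100 kb, 39.1% with protein-coding transcripts, 19.5% with the nearest gene only and 20.0% with the first 3000 numbers. The 53 pathway genes became 19 at 10 kb, 33 at 25 kb, 28 with the nearest gene only and 21 with the first 3000 numbers. The reasons for these moves were not tested, so each of these values holds only for the setting it is given with. The share of member peaks with a site ranged from 27.8 to 50.0% over all settings tried and stayed within its own interval. No paired analysis was possible because there was 1 library per condition. The deposited list holds no counts, so depth and peak strength were not analysed here.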
